A study of Homo sapiens with 18 samples.

Results

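Glycolysis is represented here by 10 genes of glucose uptake, glycolysis and lactate formation: SLC2A1, HK2, GPI, PFKP, ALDOA, ALDOC, PGK1, ENO1, ENO2 and LDHA. They were found as all array probes whose symbol is one of these, which gave 18 of the 47222 probes analysed. Of these 18, 16 were kept, being detected on 3 or more of the 18 arrays at a detection p-value (the chance of such a signal from background beads) below 0.01. Each gene was read from its brightest kept probe, so that 10 of the 12975 genes tested are members, and all 10 probes were detected on 18 of 18 arrays. RNA came from 2 established human lines derived from neuroblastoma, SK-N-SH and IMR-32, grown in RPMI medium with fetal calf serum. Each line was treated for 24 h with the solvent DMSO, with 1 µM withaferin A (WA) or with 1 µM withanone (WN). Every group had 3 biological replicates, and RNA was hybridised to Illumina HumanHT-12 v4 beadchips. WA and WN are steroidal lactones (withanolides) that differ in where the epoxide and hydroxyl groups sit on the steroid.

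Glucose enters cells through facilitative transporters of the SLC2A family, and hexokinases trap it as glucose 6-phosphate. GPI isomerises that sugar, phosphofructokinases commit it to glycolysis, aldolases split it, and PGK1 and the enolases carry the fragments towards pyruvate, which LDHA reduces to lactate. Most steps have several isozymes, and proliferating tumour cells often express this pathway strongly. Many of its genes are known targets of the hypoxia-inducible transcription factors (HIF) and of MYC proteins, and ENO2 and ALDOC are also known as neuronal isozymes.

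The promoters of the 6 members past the test with WA in either line are shown first, since these genes did not move in 1 direction. Sequences are from RefSeq (GRCh38.p14), run from 250 bases before to 50 bases after the start of transcription, and are written 5′ to 3′ on the strand of the gene. For genes with several starts, the promoter with the most matches is given. Capitals mark the letters ACGTG on either strand (CACGT when read on the strand of the gene), the core of the hypoxia response element, and CACGTG, the E-box, which holds ACGTG on both strands.
SLC2A1, chr1:42958819-42959118, minus strand: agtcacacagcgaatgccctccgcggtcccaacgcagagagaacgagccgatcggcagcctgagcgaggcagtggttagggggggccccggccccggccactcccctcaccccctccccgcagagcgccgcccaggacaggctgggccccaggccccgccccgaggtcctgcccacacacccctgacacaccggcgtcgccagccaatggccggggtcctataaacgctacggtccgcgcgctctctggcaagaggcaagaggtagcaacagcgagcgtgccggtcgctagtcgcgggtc
HK2, chr2:74834920-74835219, plus strand: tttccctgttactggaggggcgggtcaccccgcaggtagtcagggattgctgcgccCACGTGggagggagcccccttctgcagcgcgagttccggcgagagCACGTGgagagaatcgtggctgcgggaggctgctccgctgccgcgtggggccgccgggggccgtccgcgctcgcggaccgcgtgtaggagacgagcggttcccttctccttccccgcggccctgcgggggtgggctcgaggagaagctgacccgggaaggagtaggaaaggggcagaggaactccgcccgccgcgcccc
PFKP, chr10:3068939-3069238, plus strand: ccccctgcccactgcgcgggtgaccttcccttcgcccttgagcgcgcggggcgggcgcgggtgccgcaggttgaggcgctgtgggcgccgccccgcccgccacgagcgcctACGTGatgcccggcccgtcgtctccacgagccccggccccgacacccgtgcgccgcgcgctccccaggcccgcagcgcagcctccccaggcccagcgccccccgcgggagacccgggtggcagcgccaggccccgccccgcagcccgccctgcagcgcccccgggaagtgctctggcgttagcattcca
ALDOA, chr16:30064247-30064546, plus strand: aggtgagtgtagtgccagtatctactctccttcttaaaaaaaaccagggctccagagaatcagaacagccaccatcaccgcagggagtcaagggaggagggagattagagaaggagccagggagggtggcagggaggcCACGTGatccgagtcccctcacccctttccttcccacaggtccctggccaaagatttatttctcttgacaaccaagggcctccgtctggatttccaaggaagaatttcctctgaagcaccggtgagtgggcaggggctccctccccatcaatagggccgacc
ENO2, chr12:6914330-6914629, plus strand: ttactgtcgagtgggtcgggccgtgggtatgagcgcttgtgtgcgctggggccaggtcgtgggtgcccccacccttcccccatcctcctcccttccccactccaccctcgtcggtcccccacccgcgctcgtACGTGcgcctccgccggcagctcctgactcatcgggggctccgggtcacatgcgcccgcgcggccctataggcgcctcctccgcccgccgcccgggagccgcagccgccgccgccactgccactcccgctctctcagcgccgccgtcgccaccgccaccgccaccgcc
LDHA, chr11:18394313-18394612, plus strand: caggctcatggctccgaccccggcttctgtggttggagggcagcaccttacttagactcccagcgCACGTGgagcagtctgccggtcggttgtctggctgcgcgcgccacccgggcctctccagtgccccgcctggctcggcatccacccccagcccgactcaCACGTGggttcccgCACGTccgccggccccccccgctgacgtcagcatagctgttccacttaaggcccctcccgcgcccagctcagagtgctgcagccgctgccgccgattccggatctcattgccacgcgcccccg
All 10 members matched an entry, with 17 promoters in all. ACGTG stood in 11 of these 17 promoters and in 8 of 10 members, against 21.4% of 35116 promoters and 24.9% of 27305 genes in the same table. SLC2A1 and ENO1 had no match in this window. In the promoters shown, LDHA had 5 matches and HK2 4, in each case with 2 E-boxes, PFKP and ENO2 had 1, and ALDOA had 2, which are the strands of a single E-box. CACGTG stood in 4 of 17 promoters, against 7.26% of all. TGATGNAA, the composite site of ATF4 and C/EBP proteins, stood in none of the 17 and in 3.62% of all promoters. TGACNNNGC, the core of the antioxidant response element of NRF2, stood in the promoter of ALDOC alone and in 13.3% of all. A match describes letters, not a bound site. Of the members with a match shown, HK2, PFKP and LDHA fell and ENO2 and ALDOA rose, and SLC2A1, with no match here, fell. Other starts of these genes held fewer matches. The other LDHA promoter had 0, the other HK2 promoter 2 and no E-box, and the 4 PFKP promoters 1 in all. Which start each probe reads, and any link of matches with direction, was not tested.

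HMOX1, the heme oxygenase that NRF2 induces, was 67.6-fold higher with WA in IMR-32 and 183-fold higher in SK-N-SH (log2 differences 6.08 ± 0.32 and 7.51 ± 0.32, SE), and its differences with WN were −0.04 and 0.05. The 6 WN arrays were dimmer, with highest signals of 19100.5 to 21479.9 against 29825.6 to 37328.5 on the other 12. Of 10 mesenchymal markers 9 were called higher in SK-N-SH than in IMR-32 with DMSO, where 27% of all genes were higher. Of the 10, 4 were undetected in IMR-32 and entered the test through SK-N-SH alone, so that their part of the count supports nothing. As bounds, PRRX1 was at least 92.8-fold, THBS1 22.4-fold and COL1A2 1.2-fold higher in SK-N-SH. For FN1 the bound was 0.91-fold, so it was not shown to be higher. Of 12 adrenergic markers 10 were tested. Of these, DBH, DDC, CHGA, STMN2 and others were detected on all 18 arrays, but TH was detected on no SK-N-SH array and on 1 of 3 IMR-32 arrays with DMSO. The mean log2 value of the 10, TH included, was 9.64 to 10.13 on IMR-32 arrays with DMSO and 10.28 to 11.17 on SK-N-SH arrays. With WA in SK-N-SH 6 of these 10 and 3 of 10 mesenchymal markers fell, against 15.4% of all genes. Among the 3 was COL1A2, undetected with WA in SK-N-SH and on every IMR-32 array. It passed the detection filter only through SK-N-SH arrays with DMSO and WN, so that its part of the count supports nothing. As a bound it was at least 1.32-fold lower. The adrenergic mean per array with WA in SK-N-SH went to between 8.90 and 10.33. In that same group 2 of 3 tested immune markers, CD14 and CD68, rose, against 16.4% of all genes, and their list's mean was 6.67 to 6.97 against 6.10 to 6.29. With WA in IMR-32 1 adrenergic marker rose (TH) and 2 fell (DBH and ISL1), and of the mesenchymal markers 1 rose (SNAI2) and 1 fell (TWIST1), against 8.04% of all genes higher and 6.47% lower. TH was detected on 3 IMR-32 arrays with WA and on 1 with WN. It passed the detection filter only through the WA group, so that its rise supports nothing. The adrenergic mean with WA in IMR-32 was 9.55 to 9.87, and the median log2 difference of the 10 was 0.42, with 6 above 0. Among the immune markers PTPRC, CD3E and LYZ had no kept probe, and neither had any Schwann cell marker. The part of these shifts in the results on glycolysis genes was not tested. These are bulk samples, so fewer cells of a type and less RNA per cell cannot be told apart.

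With WA 5 glycolysis genes passed the test in IMR-32, in both directions, and 1 other passed in SK-N-SH, while GPI, ALDOC, PGK1 and ENO1 passed in neither line. In IMR-32 the glucose transporter SLC2A1, the hexokinase HK2, the phosphofructokinase PFKP and the lactate dehydrogenase LDHA fell, and the neuronal enolase ENO2 rose. That is 5 of 10 members past an adjusted p of 0.05 (limma), 1 higher and 4 lower, where 14.5% of all genes passed, 8.04% higher and 6.47% lower. The same 5 had their WA and DMSO arrays fully apart, which held for 40.4% of all genes. In SK-N-SH 1 of 10 passed, the aldolase ALDOA, which rose, against 31.9% of all genes, 16.4% higher and 15.4% lower. ALDOA and LDHA had their arrays fully apart there, against 35.8% of all genes. The median log2 difference of the 10 members was −0.14 for IMR-32 and 0.06 for SK-N-SH, where that of all genes was 0.02 in both. With WN 0 of 10 members passed in either line by limma, against 4.59% of all genes for IMR-32 and 1.83% for SK-N-SH, and at an unadjusted p of 0.05 the counts were 1 (LDHA) and 0, against 20.3% and 17% of all genes. WA and WN comparisons with DMSO in a line share their DMSO arrays.

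**Figure D1:**
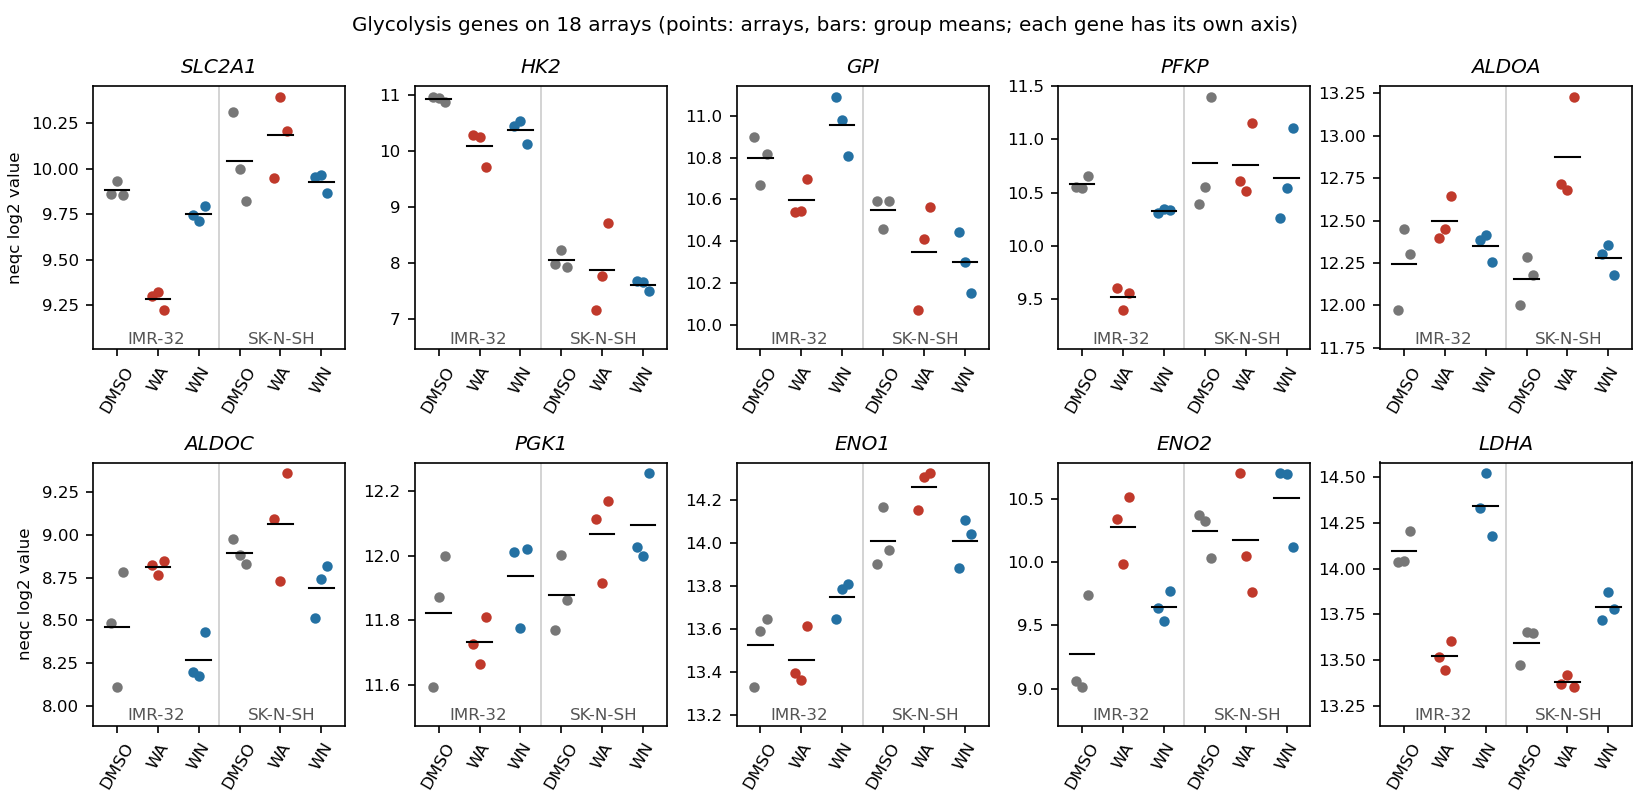
Normalized log2 values (y axis, an axis of its own for each gene) of the 10 glycolysis genes on each of 18 arrays, by line and treatment; points are arrays and bars are means of 3. The red WA points lie below the grey DMSO points for SLC2A1, HK2, PFKP and LDHA in IMR-32 and above them for ENO2 in IMR-32 and for ALDOA in SK-N-SH.

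Values below are neqc log2 values, that is background-corrected, quantile-normalized signals on a log2 scale, given for replicates 1, 2 and 3 in turn. SLC2A1 encodes GLUT1, the main basal glucose transporter of many tumour cells. In IMR-32 its values were 9.86, 9.93 and 9.86 with DMSO, 9.30, 9.33 and 9.22 with WA and 9.75, 9.72 and 9.80 with WN. The 3 treatments did not overlap there, with WA lowest and DMSO highest. SLC2A1 fell 1.52-fold with WA (log2 difference −0.60 ± 0.14, SE, n = 3 per group, limma adjusted p = 0.00721), whereas its difference with WN was −0.13 ± 0.14 (adjusted p = 0.67). SK-N-SH arrays read 10.31, 10.00 and 9.82 with DMSO, 9.95, 10.40 and 10.21 with WA and 9.96, 9.96 and 9.87 with WN. All groups of this line overlapped in part, and the WA difference was 0.14 ± 0.14 (adjusted p = 0.47). The array carried 1 probe for SLC2A1.

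HK2, the inducible hexokinase that binds mitochondria, was the member that separated the lines most. Its IMR-32 values were 10.98, 10.96 and 10.89 with DMSO, 10.29, 10.26 and 9.73 with WA and 10.46, 10.54 and 10.12 with WN. Those of SK-N-SH were 7.98, 8.24 and 7.94 with DMSO, 7.16, 7.78 and 8.72 with WA and 7.68, 7.67 and 7.52 with WN. Every SK-N-SH array lay below every IMR-32 array, and in IMR-32 both compounds lay below DMSO and overlapped each other. With DMSO HK2 was 7.41-fold lower in SK-N-SH (log2 −2.89 ± 0.27, adjusted p = 1.49e-07), and its dimmer second probe gave −1.40 ± 0.23 (adjusted p = 7.52e-05). In IMR-32 HK2 fell by 1.8-fold with WA (log2 −0.85 ± 0.27, adjusted p = 0.0463), close to the threshold. That call was lost in each of 6 fits that left out 1 of its arrays (−0.95 to −0.66, adjusted p 0.0711 to 0.168), without the 6 WN arrays in the fit (adjusted p = 0.0941), with no filter on dim probes (adjusted p = 0.0677), or with the mean of both probes (−0.58, adjusted p = 0.0922), and the second probe alone gave −0.32 ± 0.23 (adjusted p = 0.411). The WA call of HK2 was kept in 6 of 9 other settings. Among these were lines fitted separately (limma adjusted p = 0.00636) and the replicate number as a block (adjusted p = 0.0307). With WN in IMR-32 the difference was −0.57 ± 0.27 (adjusted p = 0.252). The SK-N-SH arrays with WA spread over more than a log2 unit, and their difference from DMSO was −0.17 ± 0.27 (adjusted p = 0.689). Without WA replicate 3, the highest of them, it was −0.58 (adjusted p = 0.0485).

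GPI converts glucose 6-phosphate to fructose 6-phosphate. It read 10.90, 10.67 and 10.82 with DMSO, 10.54, 10.54 and 10.70 with WA and 11.09, 10.98 and 10.81 with WN in IMR-32. The SK-N-SH values were 10.59, 10.46 and 10.59, 10.07, 10.41 and 10.57 and 10.45, 10.30 and 10.15 in the same order. WA and DMSO overlapped in both lines, with differences of −0.20 ± 0.14 and −0.20 ± 0.14 (adjusted p = 0.392 and 0.296), so that no change of GPI was called. PFKP is the platelet-type phosphofructokinase, an enzyme of the committed step. Its arrays read 10.56, 10.54 and 10.66 with DMSO, 9.60, 9.40 and 9.56 with WA and 10.31, 10.35 and 10.34 with WN in IMR-32. As with SLC2A1, the 3 treatments did not overlap and WA was lowest. PFKP fell 2.09-fold with WA (log2 −1.07 ± 0.24, adjusted p = 0.00715), the member with the largest fall in IMR-32, while the WN difference was −0.25 ± 0.24 (adjusted p = 0.632). In SK-N-SH it read 10.39, 10.56 and 11.40 with DMSO, 10.61, 10.52 and 11.16 with WA and 10.26, 10.54 and 11.10 with WN. There replicate 3 was the highest of each treatment and the treatments overlapped, with a WA difference of −0.02 ± 0.24 (adjusted p = 0.956). A second PFKP probe, detected on 1 array, was not used.

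ALDOA and ALDOC split fructose 1,6-bisphosphate; ALDOA is the ubiquitous and muscle form and ALDOC the brain form. ALDOA values in IMR-32 were 11.97, 12.45 and 12.31 with DMSO, 12.40, 12.45 and 12.65 with WA and 12.39, 12.41 and 12.26 with WN, with all groups overlapping. SK-N-SH arrays held 12.00, 12.29 and 12.18 with DMSO, 12.72, 12.68 and 13.23 with WA and 12.30, 12.35 and 12.18 with WN. The 3 WA arrays were above every other ALDOA value of both lines. ALDOA rose 1.65-fold with WA in SK-N-SH (log2 0.72 ± 0.16, adjusted p = 0.00272), and its second bright probe rose by 0.75 ± 0.19 (adjusted p = 0.00782). In IMR-32 the WA difference was 0.26 ± 0.16 (adjusted p = 0.326) and the second probe gave 0.28 ± 0.19. The call in SK-N-SH held without any 1 of its 6 arrays, at 0.54 to 0.82. Another, dim probe of ALDOA, detected on 4 of 18 arrays, gave 0.01 ± 0.23 in SK-N-SH. ALDOC read 8.48, 8.11 and 8.78 with DMSO, 8.82, 8.76 and 8.85 with WA and 8.19, 8.17 and 8.43 with WN in IMR-32. In SK-N-SH it read 8.97, 8.88 and 8.83, 9.09, 8.73 and 9.36 and 8.51, 8.74 and 8.82. In IMR-32 the WA arrays were close together, 1 DMSO array lay within their range and the other DMSO arrays lay below it, and ALDOC passed against DMSO in neither line (WA differences 0.35 ± 0.17 and 0.17 ± 0.17, adjusted p = 0.202 and 0.501).

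PGK1 makes the first ATP of the pathway. Its 18 values lay between 11.59 and 12.26, the narrowest range of the 10 members, and no treatment or line was apart from its control. WA differences were −0.09 ± 0.13 for IMR-32 and 0.19 ± 0.13 for SK-N-SH (adjusted p = 0.751 and 0.315), and a second PGK1 probe gave −0.20 ± 0.15 and 0.05 ± 0.15. ENO1 is the ubiquitous enolase. It read 13.33, 13.59 and 13.65 with DMSO, 13.39, 13.36 and 13.61 with WA and 13.65, 13.79 and 13.81 with WN in IMR-32, and 13.90, 14.17 and 13.97, 14.15, 14.31 and 14.32 and 13.88, 14.11 and 14.04 in SK-N-SH. Every SK-N-SH array lay above every IMR-32 array, and WA and DMSO overlapped within each line. The WA differences of ENO1 were −0.07 ± 0.13 and 0.25 ± 0.13 (adjusted p = 0.811 and 0.149).

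ENO2, the neuron-specific enolase used as a neuroendocrine marker, moved apart from ENO1. In IMR-32 it read 9.06, 9.01 and 9.74 with DMSO, 10.34, 9.99 and 10.51 with WA and 9.64, 9.53 and 9.77 with WN. The WA arrays were above all others of the line, and DMSO replicate 3 stood above the other two. ENO2 rose 2.01-fold with WA (log2 1.01 ± 0.24, adjusted p = 0.0107). Without DMSO replicate 1 the rise was 0.90 (adjusted p = 0.0515) and without DMSO replicate 2 it was 0.88 (adjusted p = 0.0537), both short of the test. In SK-N-SH it read 10.37, 10.33 and 10.03 with DMSO, 10.70, 10.04 and 9.77 with WA and 10.70, 10.69 and 10.12 with WN. Its WA arrays spanned those of the other groups, with a difference of −0.07 ± 0.24 (adjusted p = 0.856). The IMR-32 arrays with WA (9.99 to 10.51) reached below and above the SK-N-SH arrays with DMSO (10.03 to 10.37).

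LDHA turns pyruvate into lactate. In IMR-32 it read 14.04, 14.04 and 14.20 with DMSO, 13.52, 13.45 and 13.60 with WA and 14.33, 14.52 and 14.18 with WN. SK-N-SH arrays held 13.47, 13.66 and 13.65 with DMSO, 13.37, 13.42 and 13.35 with WA and 13.72, 13.87 and 13.78 with WN. In both lines WA arrays were lowest and apart from DMSO, and in SK-N-SH WN arrays were highest and apart too. LDHA fell 1.48-fold with WA in IMR-32 (log2 −0.57 ± 0.12, adjusted p = 0.00385). The other probes of LDHA, one as bright and one dim and detected on 16 of 18 arrays, fell by 0.76 (adjusted p = 0.000773) and by 0.88 (adjusted p = 0.0270). Among the 205 genes with a mean log2 value of at least 13, ranked from the highest difference to the lowest, LDHA came 204th. In SK-N-SH the WA difference of LDHA was −0.21 ± 0.12 (adjusted p = 0.188), which did not pass.

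**Figure D2:**
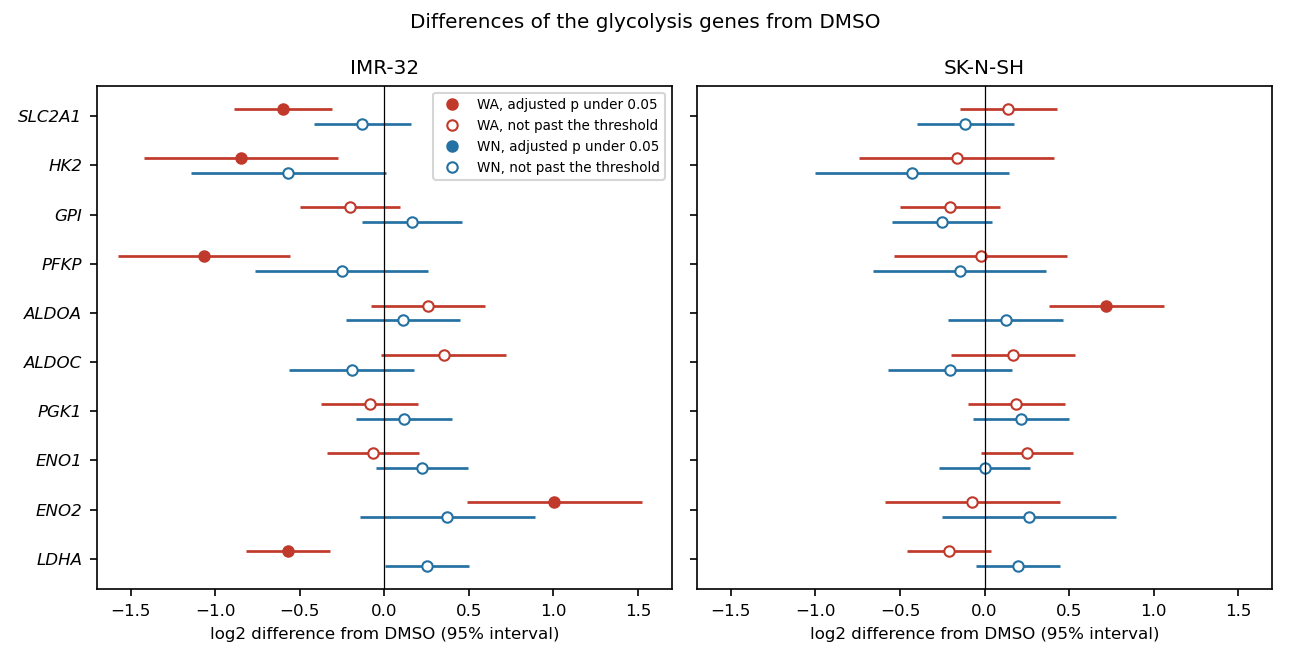
Log2 difference from DMSO (x axis) of the 10 glycolysis genes (y axis, pathway order) for WA (red) and WN (blue) in each line, with 95% intervals; filled points are past an adjusted p of 0.05. Filled points are SLC2A1, HK2, PFKP and LDHA on the left and ENO2 on the right in IMR-32, and ALDOA in SK-N-SH, and every WN point is open.

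Whether the lines differed in the WA effect was tested as the SK-N-SH difference minus the IMR-32 difference. SLC2A1 was the 1 of 10 members past the threshold, with 0.74 ± 0.19 (adjusted p = 0.0291), where 6.66% of all genes passed. This call was kept without SK-N-SH DMSO replicate 1 or WA replicate 1 and lost without each of the other 10 arrays (0.63 to 0.76, adjusted p 0.0537 to 0.0752), and also in the fit without the WN arrays (adjusted p = 0.0784). PFKP differed by 1.04 ± 0.34 (adjusted p = 0.0764) and ENO2 by −1.08 ± 0.34 (adjusted p = 0.071), short of the threshold. With the replicate number as a block within each line, adjusted p was 0.00193 for PFKP and 0.00665 for ENO2, so that 3 members were called. ALDOA, the member that rose in SK-N-SH, was not shown to differ between the lines (0.46 ± 0.23, adjusted p = 0.23), nor was HK2 (0.68 ± 0.38, adjusted p = 0.309) or LDHA (0.36 ± 0.17, adjusted p = 0.202).

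WN left no member past the threshold, with 95% intervals that reached from −1.14 to 0.89 for IMR-32 and from −1.01 to 0.78 for SK-N-SH. Arrays were fully apart for 3 of 10 members in IMR-32 (SLC2A1, HK2 and PFKP, lower with WN), about the share of all genes, 31.5%. In SK-N-SH they were apart for 4 (HK2, GPI and ALDOC lower, LDHA higher), against 21.8%. The lowest adjusted p was that of LDHA in IMR-32, 0.25 ± 0.12 (adjusted p = 0.241). Its second bright probe rose by 0.49 ± 0.13 (adjusted p = 0.0381) in IMR-32 and differed by 0.41 ± 0.13 (adjusted p = 0.119) in SK-N-SH, and the dim probe gave −0.08 ± 0.25 and −0.27 ± 0.25. Among the 205 bright genes LDHA ranked 29th for IMR-32 and 39th for SK-N-SH by the WN difference, and the 10th and 90th percentiles of those genes were −0.36 and 0.29 for IMR-32 and −0.24 and 0.29 for SK-N-SH. The WN arrays were the dimmer ones, and the part of that in these bright probes was not tested. No member differed between the lines in the WN effect by limma (0 of 10, and 0 at an unadjusted p of 0.05, against 0% of all genes adjusted and 3.68% unadjusted).

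The 2 withanolides were compared with each other at the same dose and time in each line, 10 genes by 2 lines. In IMR-32 LDHA was 1.77-fold lower with WA than with WN (log2 −0.82 ± 0.12, adjusted p = 0.000155), and its other probes gave −1.25 ± 0.13 and −0.81 ± 0.25 (adjusted p = 7.92e-06 and 0.0286). PFKP (−0.81 ± 0.24, adjusted p = 0.0219) and SLC2A1 (−0.47 ± 0.14, adjusted p = 0.0195) were also lower with WA, and ALDOC was higher (0.54 ± 0.17, adjusted p = 0.0317). These 4 of 10, 1 higher and 3 lower, compare with 23.7% of all genes, 12.6% higher and 11.2% lower, and 7 of 10 had arrays fully apart, against 43.4%. Leaving out 1 array of the comparison left 2 or 3 of them past the threshold. SLC2A1 was lost without WA replicate 3 or WN replicate 3 (adjusted p = 0.0583 and 0.0533), PFKP without WA replicate 2 or any WN array (0.0519 to 0.0793) and ALDOC without any array other than WN replicate 3 (0.0685 to 0.102). LDHA was called in each of the 6 fits. ENO2 was 0.63 ± 0.24 (adjusted p = 0.0701), and 0.00840 with the replicate number as a block. For HK2 the interval of the difference between the compounds was −0.85 to 0.30, and for PGK1 −0.49 to 0.08, so a difference of that size cannot be told from none.

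In SK-N-SH 2 of 10 members differed between WA and WN, against 38.3% of all genes. ALDOA was higher with WA (0.60 ± 0.16, adjusted p = 0.00769) and LDHA was lower (−0.41 ± 0.12, adjusted p = 0.0113). The second LDHA probe gave −0.63 ± 0.13 (adjusted p = 0.00104) and the second ALDOA probe 0.69 ± 0.19 (adjusted p = 0.0103), while the dim probes gave −0.28 ± 0.25 for LDHA and −0.20 ± 0.23 for ALDOA (adjusted p = 0.422 and 0.541). LDHA was thus lower with WA than with WN in both lines. ALDOA, ENO1 and LDHA had arrays fully apart, 3 of 10 against 42.9%. Without WN replicate 2 LDHA missed the threshold (−0.37, adjusted p = 0.0505). Without WA replicate 1, SLC2A1 (0.37, adjusted p = 0.0403) and HK2 (0.63, adjusted p = 0.0405) were also called, and without WA replicate 2, ALDOC (0.54, adjusted p = 0.0291). The interval for PFKP was −0.39 to 0.64 and for GPI −0.25 to 0.34.

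With DMSO alone, the lines differed in 5 of 10 members, against 51.5% of all genes. HK2 and LDHA were lower in SK-N-SH, where 24.5% of all genes were lower, and ENO1, ENO2 and ALDOC higher, where 27% were. LDHA differed by −0.50 ± 0.12 (adjusted p = 0.00179), ENO1 by 0.49 ± 0.13 (adjusted p = 0.00445) and ENO2 by 0.97 ± 0.24, a 1.96-fold difference (adjusted p = 0.00322). ALDOC was close to the threshold at 0.43 ± 0.17 (adjusted p = 0.0462), and was past it in 1 of the 6 fits that left out an array, the one without IMR-32 DMSO replicate 3 (range 0.26 to 0.60, adjusted p 0.0128 to 0.244), and it was lost with no filter on dim probes (adjusted p = 0.0568). Arrays were fully apart for 6 of 10, these 5 and GPI, against 61.8% of all genes. The 2 bright ALDOA probes disagreed in sign, at −0.09 ± 0.16 and 0.40 ± 0.19, and neither passed. HK2 thus stood out in size, and its line difference was −2.98 to −2.83 in 6 fits with 1 array left out.

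The other enzymes of the pathway were 21 isozymes, of which 15 were tested. With WA in IMR-32 1 of 15 rose and 0 fell, against 8.04% and 6.47% of all genes: HK1, the constitutive hexokinase, by 0.47 ± 0.14 (adjusted p = 0.0313), from 11.87 ± 0.16 to 12.34 ± 0.24 (SD, n = 3), while HK2 fell. In SK-N-SH 2 rose and 2 fell, against 16.4% and 15.4%. One of the 2 that rose, HKDC1, a hexokinase paralogue, was detected on the 3 SK-N-SH arrays with WA and on no other array. It entered the test through that group alone, so that its count supports nothing, and it is given as a level at least 3.34-fold above DMSO. The muscle enolase ENO3 rose by 0.58 ± 0.18. The phosphofructokinases PFKL and PFKM fell (−0.61 ± 0.18 and −0.39 ± 0.12). The median difference of the 15 was 0.01 for IMR-32 and 0.17 for SK-N-SH, or 0.16 with undetected genes at their bound, against 0.02 for all genes in both lines. With DMSO 3 were higher and 6 lower in SK-N-SH, against 27% and 24.5% of all genes (1 of the 3, PGAM2, was detected in SK-N-SH alone), among them PFKL (0.70) and PKM, the pyruvate kinase (−0.73). Against WN, LDHB, the lactate dehydrogenase subunit of heart type, was lower with WA in both lines (−0.60 ± 0.17 and −0.67 ± 0.17, adjusted p = 0.02 and 0.00626). LDHB was not called with WA against DMSO in either line. With WN in IMR-32 it was 0.42 ± 0.17 above DMSO (adjusted p = 0.184), with arrays fully apart.

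Glucose and lactate transporters, 6 tested of 14, held a gene that rose in both lines. With WA 2 of 6 rose in IMR-32 and 1 of 6 in SK-N-SH, against 8.04% and 16.4% of all genes. SLC2A3, the high-affinity neuronal transporter GLUT3, went from 7.84 ± 0.08 with DMSO to 9.07 ± 0.47 with WA in IMR-32 (SD, n = 3), and from 7.26 ± 0.46 to 9.51 ± 0.93 in SK-N-SH. WA and DMSO arrays were apart in both lines, with WA the higher. SLC2A3 rose by 1.23 ± 0.38 (adjusted p = 0.037) and 2.25 ± 0.38 (adjusted p = 0.000339), and in IMR-32 SLC2A1 fell on the same arrays. A near-identical copy, SLC2A14, had no kept probe, and how far the SLC2A3 probe also reads it was not tested. SLC2A10, which encodes GLUT10, rose in IMR-32 by 1.09 ± 0.29 (adjusted p = 0.018). No transporter fell, and neither SLC2A3 (1.01 ± 0.53, adjusted p = 0.27) nor another passed the test of a difference between the lines. The median was 0.21 for IMR-32 and 0.22 for SK-N-SH.

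Among 18 tested genes of 24 that control flux into and out of glycolysis, 0 rose and 3 fell with WA in IMR-32, against 8.04% and 6.47% of all genes, and 4 rose and 4 fell in SK-N-SH, against 16.4% and 15.4%. PGM1, a phosphoglucomutase that links glucose 6-phosphate to glycogen, fell in both lines, by −0.48 ± 0.11 for IMR-32 and −0.84 ± 0.11 for SK-N-SH. PGM2 also fell in both, with −0.59 ± 0.16 and −0.62 ± 0.16. PFKFB3 makes fructose 2,6-bisphosphate, the activator of phosphofructokinase. It went from 10.76 ± 0.04 to 10.24 ± 0.08 with WA in IMR-32 and from 9.97 ± 0.07 to 10.43 ± 0.10 in SK-N-SH (SD, n = 3). The arrays were apart in both lines, in opposite directions. PFKFB3 fell by 0.53 in IMR-32 (adjusted p = 0.00298), rose by 0.46 ± 0.10 in SK-N-SH (adjusted p = 0.00343), and the lines differed by 0.98 ± 0.15 (adjusted p = 0.00117). TIGAR, a phosphatase that lowers fructose 2,6-bisphosphate, rose by 0.90 ± 0.18 in SK-N-SH (adjusted p = 0.00135) and was undetected in IMR-32 with DMSO, where SK-N-SH stood at least 12.0-fold higher. FBP1, which reverses the phosphofructokinase step, was undetected with WA in SK-N-SH and detected there on 2 of 3 arrays with DMSO. As a bound it was at least 1.14-fold lower. The limma adjusted p of 0.0301 belongs to its fitted difference, −0.79. The median was −0.01 for IMR-32 and −0.16 for SK-N-SH.

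**Figure D3:**
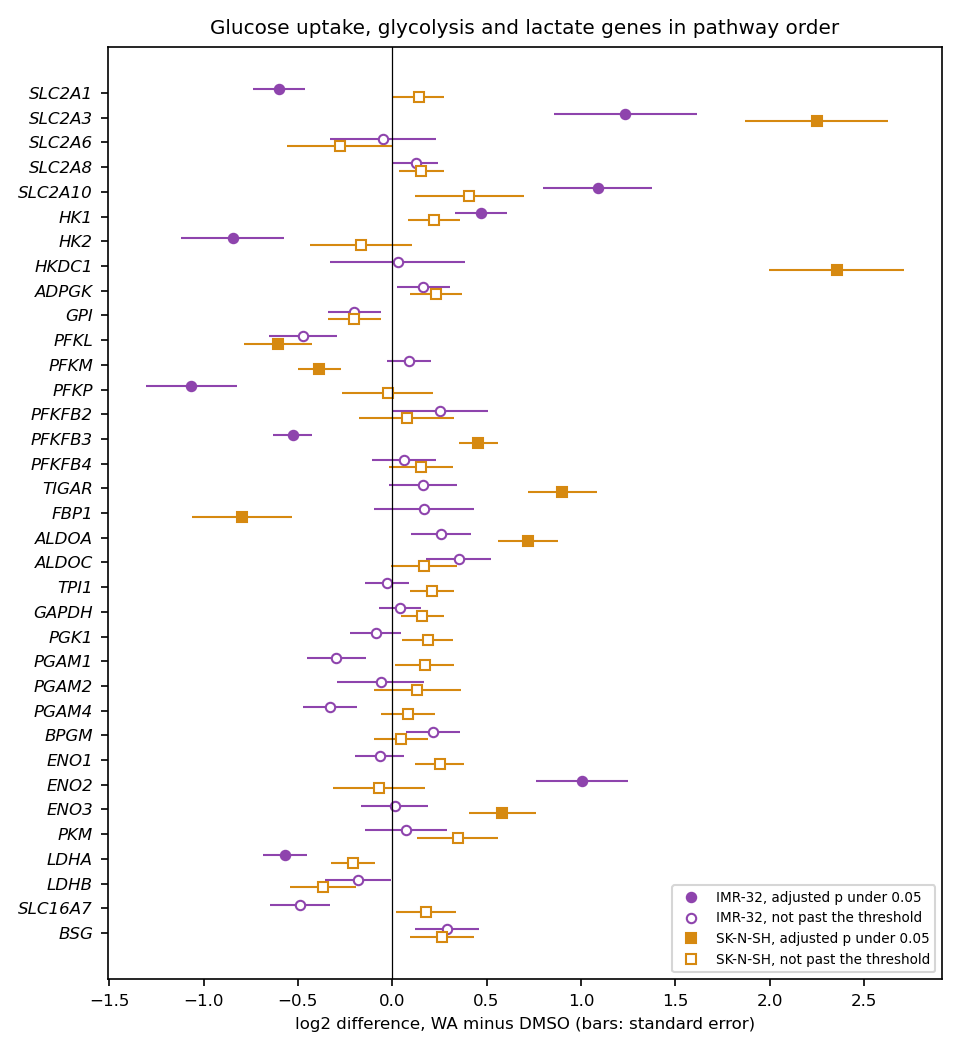
Log2 difference between WA and DMSO (x axis) for the members and the other tested uptake, glycolysis, phosphofructokinase-control and lactate genes (y axis, pathway order), purple circles for IMR-32 and orange squares for SK-N-SH, with bars of 1 standard error; filled marks are past an adjusted p of 0.05. SLC2A3 and HKDC1 lie farthest right in SK-N-SH, and the isozyme pairs SLC2A1 and SLC2A3, HK2 and HK1, and ENO1 and ENO2 do not move together in IMR-32. In SK-N-SH HKDC1, undetected with DMSO, and FBP1, undetected with WA, are drawn at their fitted differences. For HKDC1 that is 2.35, where the bound is 1.74.

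Since many glycolysis genes are HIF targets, 24 other genes of the HIF pathway or induced by hypoxia were counted, of which 21 were tested. With WA in SK-N-SH 10 of 21 rose and 0 fell, against 16.4% of all genes higher, and the median was 0.43. DDIT4, an inhibitor of mTORC1 signalling that other stresses also induce, rose by 1.66 ± 0.19, the collagen prolyl hydroxylase subunit P4HA2 by 1.46 ± 0.23, NDRG1 by 1.40 ± 0.25 and the histone demethylase KDM3A by 1.13 ± 0.22. In IMR-32, where 8.04% of all genes rose and 6.47% fell, 2 rose, DDIT4 (1.20 ± 0.19) and P4HA2 (0.96 ± 0.23), and 1 fell, the carbonic anhydrase CA12 (−2.15 ± 0.38), with a median of 0.13. The lines differed for 3 of 21, against 6.66% of all genes: CA12 (2.98 ± 0.54), the oxygen-sensing prolyl hydroxylase EGLN1 (1.17 ± 0.27) and ANKRD37 (0.72 ± 0.19), each with the more positive difference in SK-N-SH. In that line 1 of 10 glycolysis genes rose, and the difference between the 2 counts was not tested. EPAS1, which encodes HIF-2α, was undetected in IMR-32 with DMSO and at least 60.5-fold higher in SK-N-SH (11.00 ± 0.31, SD, n = 3).

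**Figure D4:**
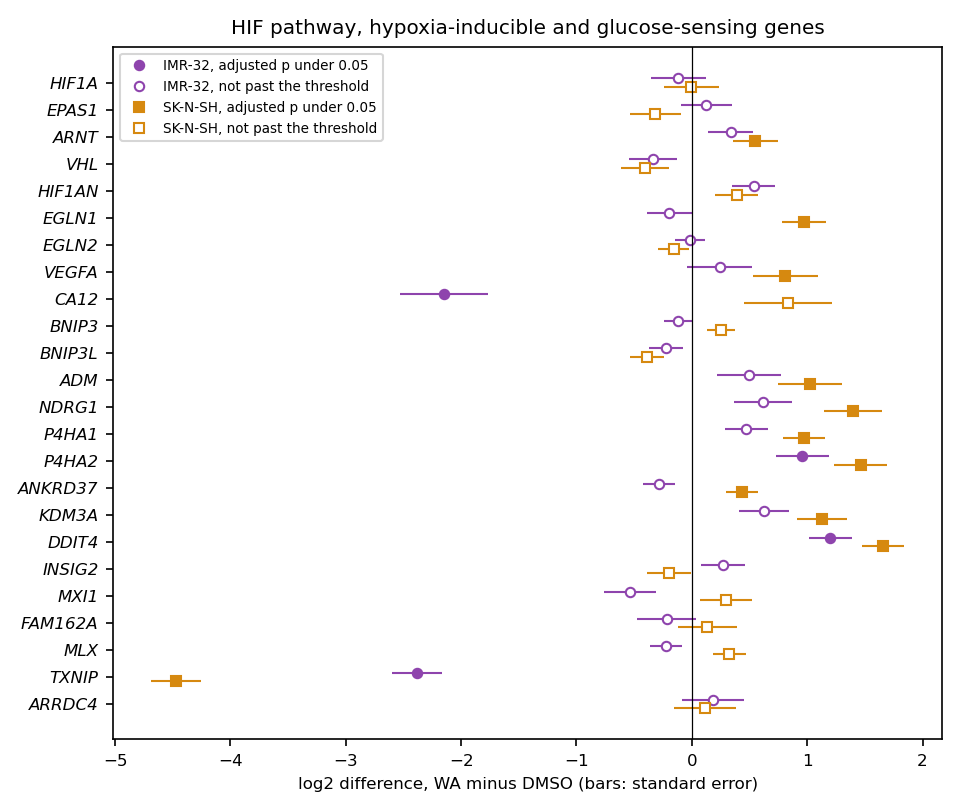
Log2 difference between WA and DMSO (x axis) for the 21 tested genes of the HIF pathway and hypoxia response and 3 tested glucose-sensing genes (y axis), purple circles for IMR-32 and orange squares for SK-N-SH, with bars of 1 standard error; filled marks are past an adjusted p of 0.05. Filled squares lie to the right of 0 for 10 of the 21 genes in SK-N-SH, CA12 lies at −2.15 in IMR-32, and TXNIP lies farthest left in both lines.

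TXNIP, an inhibitor of glucose uptake and of thioredoxin whose gene is induced by glucose through the MLX partner proteins, was 1 of 3 tested glucose-sensing genes of 5. It read 10.25 ± 0.19 with DMSO, 7.87 ± 0.28 with WA and 10.03 ± 0.07 with WN in IMR-32 (SD, n = 3). In SK-N-SH the means were 11.30 ± 0.20, 6.83 ± 0.55 and 10.94 ± 0.14. WA arrays were far below DMSO arrays in both lines. The fall in SK-N-SH was larger, by a line difference of −2.09 ± 0.31 (adjusted p = 0.00105). ARRDC4, its relative under the same control, and MLX itself did not pass with WA in either line.

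With WN none of the 63 other tested genes of these 5 lists passed in either line by limma in the fit without the replicate block. Of them 8 for IMR-32 and 10 for SK-N-SH were under an unadjusted p of 0.05, against 20.3% and 17% of all genes. No blocked values are given for these genes. Over all genes the block raised the calls with WN from 595 to 987 in IMR-32 and from 238 to 495 in SK-N-SH. VEGFA, the vascular growth factor, gave the largest WN differences, −0.82 ± 0.28 for IMR-32 and −0.78 ± 0.28 for SK-N-SH (adjusted p = 0.108 and 0.165), with arrays apart from DMSO in both lines. It was detected on 1 of 3 WN arrays in IMR-32, so its level there was close to background, and on 3 of 3 in SK-N-SH. ENO3 gave −0.39 ± 0.18 and −0.65 ± 0.18 (adjusted p = 0.224 and 0.0691), and SLC2A3, which rose with WA, gave −0.65 ± 0.38 and −0.43 ± 0.38 (adjusted p = 0.357 and 0.627). TXNIP gave −0.22 and −0.37 with WN.

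Over the 9 arrays of IMR-32, Pearson r of the 45 pairs of members ran from −0.88, between SLC2A1 and ENO2, to 0.97, between SLC2A1 and PFKP, with a median of 0.19 and 25 pairs above 0. In SK-N-SH SLC2A1 and PFKP gave −0.37, the highest r was 0.82 between ALDOA and ENO1, and the median was 0.09. These values describe 3 treatments with 3 arrays each, so that differences between treatments enter them. Over all 18 arrays, after the mean of each line was subtracted, the gene most like each member was no other member. They were PLD6 for SLC2A1 (r = 0.89), WDR11 for HK2 (0.88), COL20A1 for GPI (0.76), SPRY1 for PFKP (0.94) and NRBP1 for ALDOA (0.90). For the rest they were H2AC25 for ALDOC (0.87), CCAR1 for PGK1 (0.79), KRR1 for ENO1 (0.84), MAPK10 for ENO2 (0.90) and FASTKD3 for LDHA (0.94). Of the 50 genes in the 5 nearest of each member, 0 were members and 1, CA12, stood in a pathway list. Of the 12975 genes tested 10 are members and 63 stand in the lists, so few of either would be met among any 50 genes. These low counts do not show whether the members vary together.

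**Figure D5:**
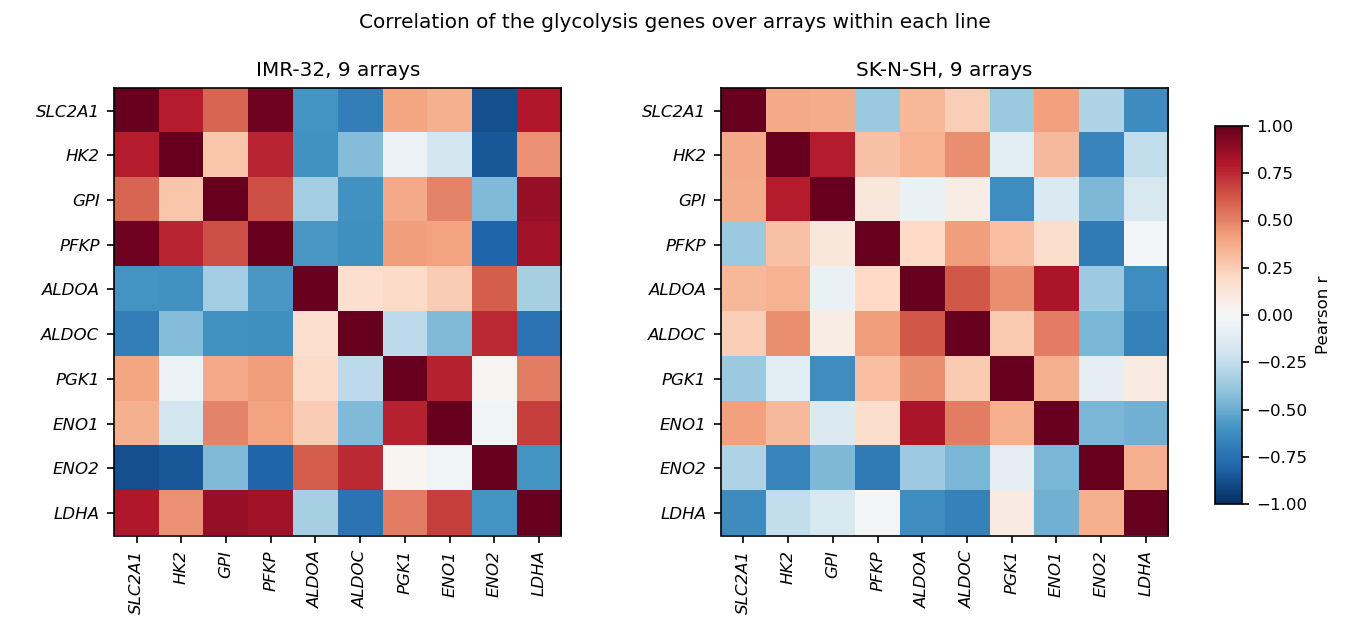
Pearson r between the log2 values of each pair of glycolysis genes (both axes) over the 9 arrays of IMR-32 (left) and of SK-N-SH (right), from blue (−1) to red (1). In IMR-32 the pairs of SLC2A1, HK2, PFKP and LDHA are red (palest for HK2 and LDHA, 0.46) and ENO2 is blue against SLC2A1, HK2 and PFKP; in SK-N-SH SLC2A1 and PFKP gave −0.37.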

How the data were processed

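RNA of 18 cultures (2 lines by 3 treatments, 3 biological replicates each, per the labels) was measured on 18 arrays. Per the file headers, the table deposited before normalization gives a signal, which is an intensity on a linear scale, and a detection p-value per array for 47224 probes. The deposited series matrix holds log2 values, processed with limma per the submitters' processing notes, with the version not given in the sources used here. It was used as an alternative. Array signals have no counting depth, so the number of arrays limits the precision.

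The 47222 probes without missing values were put through neqc (limma 3.58.1, R 4.3.3), which applies normexp with an offset of 16, quantile normalization and log2. Detection p-values deposited for the 6 WN arrays were out of step with the signals beside them, and were rederived from each array's own signals (a falling function fitted to a running median over 101 probes), a change made after seeing the data. Of the probes 30107 had 1 symbol in the platform's annotation, and 23320 passed the detection filter. Of several kept probes the brightest stood for a gene (12975 genes). One limma model was fitted to all 18 arrays (1 mean per group, eBayes), and p-values were adjusted by Benjamini-Hochberg over all genes in each of 9 comparisons, with 0.05 as the threshold. The model was tested on simulated data for WA against DMSO in IMR-32. It recovered 74 of 100 genes changed by 1 log2 unit and 97 of 100 changed by 2, with 9 false calls. Simulated arrays were drawn independently, and only these genes were changed, in 1 group. Real arrays deviated together by replicate number and 1883 genes were called in this comparison, so these figures need not carry over. Smaller changes were not simulated. Fitted folds of genes undetected in 1 group were replaced by bounds against the dimmest detected signal of each array. Figures were drawn with matplotlib 3.10.9.

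Within a line, arrays of the same replicate number deviated together (r from 0.161 to 0.338 in IMR-32 and from 0.214 to 0.663 in SK-N-SH between treated and DMSO arrays), so the numbers may pair the samples there. The labels name no pairing, and the main fit does not use the numbers. Blocked values are printed where they change a call of a member, and none are given for the genes of the other lists. Values with no setting named are from the fit without the block. Between the lines the DMSO arrays gave 0.0278, 0.0872 and −0.124.

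Members and lists were chosen with earlier results of these data known. All members are named, and of each list up to 4 genes past the threshold with the largest change in a comparison, or the 2 largest if none passed; the text describes part of these. Alternatives were the series matrix values, no normexp, the deposited detection p-values, other filters, the mean of all probes of a gene, separate fits per line, the replicate block and leaving out each array. A fit without the 6 WN arrays was added after seeing the data.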

Additional observations from a re-analysis of the deposited data

Results flagged for a closer look

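SLC2A1 was marked because its response to WA differed between the lines by the test of that difference. The SK-N-SH difference minus the IMR-32 difference was 0.74 ± 0.19 on the log2 scale (limma adjusted p = 0.0291). All 3 IMR-32 arrays with WA were below all 3 with DMSO, whereas the groups of SK-N-SH overlapped. The call was lost in 10 of 12 fits that left out 1 array (adjusted p 0.0537 to 0.0752) and in the fit without the WN arrays (adjusted p = 0.0784).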

How the results depend on the processing

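No call of a member reversed under any alternative. Of 73 counts of members called under other settings, 71 stayed within 1.5 times the value reported. The other two are the line difference in the WA effect, where 1 member became 3 with the replicate number as a block (PFKP and ENO2 added) and 0 in the fit without the WN arrays, which has fewer samples. The block, which follows the replicate numbers within lines, changed 1 further call of a member, ENO2 between WA and WN in IMR-32. Leaving out 1 array gave 3 to 4 members in place of 5 for WA in IMR-32, 1 to 2 in place of 1 for WA in SK-N-SH, 2 to 3 in place of 4 for WA against WN in IMR-32, 1 to 4 in place of 2 in SK-N-SH, 0 to 4 in place of 1 for the line difference in the WA effect and 4 to 5 in place of 5 between the lines with DMSO. These fits have fewer samples. Counts with WN stayed at 0. Of 730 single values under other settings 6 lost and 7 gained a call, and of 660 with an array left out 35 lost and 9 gained one. GPI between WA and WN in IMR-32 passed with no normexp and with the series matrix values (−0.34, adjusted p = 0.0346) and with lines fitted separately (adjusted p = 0.0405). Over all genes, calls with WN in SK-N-SH went from 238 to 423 with no normexp or with the series matrix values, to 495 with the block and to 0 with lines fitted separately. In IMR-32 they went from 595 to 921, 918, 987 and 1117 in the same order. Calls with WA in SK-N-SH went from 4134 to 2694 with lines fitted separately. The line difference in the WA effect went from 864 genes to 1751 with the block and 558 without the WN arrays. The cause of these shifts was not tested.

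With 3 arrays per group, members with a wide spread, such as HK2 with WA in SK-N-SH (SD 0.79), could differ by amounts this test does not call. ALDOC, HK2 and SLC2A1 hold calls close to the threshold. The p-values rest on the spread between cultures within groups, pooled over both lines and all treatments. They do not measure the spread of each line alone, and each line is 1 cell line.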
